A study of Mus musculus with 8 samples.

Results

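Luminal and basal-like mammary tumor cells without Lats1 were compared by the positions of open chromatin, in 4 ATAC-seq libraries of the 8 in the series. BM3 and BM7 came from Lats1-CKO luminal cells and BM4 and BM8 from Lats1-CKO basal-like cells. The overlapping or touching peaks of these libraries were merged into 154128 regions. A region was called luminal where BM7 had a peak and neither BM4 nor BM8 did, whatever BM3 showed, and 22579 regions (14.6% of all) met this rule. A region was called basal-like where BM4 and BM8 both had a peak and neither luminal library did, and 8310 regions (5.39%) met it. The 44091 regions with a peak in BM7, BM4 and BM8 are called shared.

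The cells were cultured lines from mammary tumors that the PyMT oncogene had driven in mice of the strain labelled FBV/N, and every group of the series carries PyMT. Lats1-CKO denotes the conditional knockout of Lats1, and WT denotes cells with intact Lats1. Luminal cells were sorted as EpCAM-high; CD49f-high and basal-like cells as EpCAM-low; CD49f-high, and both were expanded briefly in culture before the assay. The WT libraries, luminal BM1 and BM5 and basal-like BM2 and BM6, took no part in the rule. The labels do not tie the 2 libraries of a group to separate tumors or lines, so the spread between them may be technical.

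Luminal cells line the milk ducts and are joined by tight and adherens junctions, whereas basal cells lie beneath them, contact the basement membrane and can contract. LATS1 is a kinase of the Hippo pathway that keeps the coactivators YAP and TAZ, which act with TEAD factors, out of the nucleus. ATAC-seq uses a transposase that cuts accessible DNA, so a peak marks open chromatin such as an active promoter or enhancer. The E-box CAGGTG is the binding sequence of the SNAI and ZEB repressors, known for silencing epithelial genes, and of some bHLH factors. AP-1, a dimer of FOS and JUN proteins, binds TGANTCA, where N is any base.

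The sequences below show the letters that the motif comparisons count, with every CAGGTG and TGANTCA (either strand) in capitals. The first 3 are promoter windows from RefSeq on GRCm38.p6, from 250 bases before to 50 after a start site, on the strand of the gene. Cldn4 (chr5:134946885-134947184, minus strand) and Crb3 (chr17:57061951-57062250, plus strand), which encode a tight junction claudin and a polarity protein, had luminal peaks there. Col5a1 (chr2:27886175-27886474, plus strand), which encodes a fibrillar collagen chain, had a basal-like peak.
Cldn4: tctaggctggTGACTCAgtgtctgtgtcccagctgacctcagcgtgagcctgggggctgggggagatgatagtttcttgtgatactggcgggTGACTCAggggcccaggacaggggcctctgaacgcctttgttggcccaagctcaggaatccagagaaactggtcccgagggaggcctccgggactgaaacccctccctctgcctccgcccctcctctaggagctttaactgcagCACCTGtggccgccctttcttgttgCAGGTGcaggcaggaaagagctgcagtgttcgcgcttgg
Crb3: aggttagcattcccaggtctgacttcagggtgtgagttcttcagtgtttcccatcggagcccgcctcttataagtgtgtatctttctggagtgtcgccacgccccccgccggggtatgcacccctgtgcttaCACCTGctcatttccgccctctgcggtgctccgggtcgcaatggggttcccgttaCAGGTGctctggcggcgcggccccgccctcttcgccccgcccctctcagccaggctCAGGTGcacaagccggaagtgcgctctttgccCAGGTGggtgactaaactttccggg
Col5a1: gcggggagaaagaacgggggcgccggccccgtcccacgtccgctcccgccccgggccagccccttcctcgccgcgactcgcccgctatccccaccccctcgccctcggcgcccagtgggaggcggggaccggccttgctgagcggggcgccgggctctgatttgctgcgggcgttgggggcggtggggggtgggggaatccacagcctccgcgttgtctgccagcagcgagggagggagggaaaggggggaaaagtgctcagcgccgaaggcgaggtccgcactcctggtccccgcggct
In the Cldn4 window both AP-1 motifs lay inside the luminal peak (chr5:134946992-134947212) and the 2 E-boxes, which start 14 bases before and 12 bases after the start site, lay outside it. In the Crb3 window 3 of the 4 E-boxes lay inside the luminal peak (chr17:57062073-57062219). The Col5a1 window held neither motif. The sequences were chosen for their motifs after the values were seen.

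Among the 5 luminal and the 5 basal-like distal regions that ranked highest by score, 3 luminal and no basal-like regions held the E-box, and 2 of each held the AP-1 motif. From each set, 2 that show these motifs are printed from the plus strand of GRCm38, whole or as their central 300 bases. The first luminal region lies in an intron of Tmprss11e (chr5:86741236-86741447), a membrane serine protease gene, and the second in an intron of Evi5l (chr8:4174018-4174317). The first basal-like region lies in an intron of Pappa2 (chr1:158853311-158853546), which encodes a protease of IGF-binding proteins. The second is intergenic, 144922 bp from the nearest protein-coding start site (chr17:83992973-83993272).
Tmprss11e intron, luminal: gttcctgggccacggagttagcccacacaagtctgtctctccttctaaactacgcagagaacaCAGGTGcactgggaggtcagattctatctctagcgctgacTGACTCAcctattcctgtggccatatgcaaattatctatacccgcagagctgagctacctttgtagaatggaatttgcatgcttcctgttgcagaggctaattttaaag
Evi5l intron, luminal: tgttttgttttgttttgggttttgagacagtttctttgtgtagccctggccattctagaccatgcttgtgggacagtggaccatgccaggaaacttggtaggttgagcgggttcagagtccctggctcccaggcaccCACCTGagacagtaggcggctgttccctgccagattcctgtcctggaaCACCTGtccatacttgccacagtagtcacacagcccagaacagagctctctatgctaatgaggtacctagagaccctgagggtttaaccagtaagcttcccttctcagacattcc
Pappa2 intron, basal-like: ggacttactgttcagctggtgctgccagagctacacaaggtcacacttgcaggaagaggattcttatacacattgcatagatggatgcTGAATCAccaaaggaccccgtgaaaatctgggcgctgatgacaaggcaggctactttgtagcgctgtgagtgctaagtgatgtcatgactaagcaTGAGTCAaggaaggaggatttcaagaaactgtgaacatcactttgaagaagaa
Intergenic, basal-like: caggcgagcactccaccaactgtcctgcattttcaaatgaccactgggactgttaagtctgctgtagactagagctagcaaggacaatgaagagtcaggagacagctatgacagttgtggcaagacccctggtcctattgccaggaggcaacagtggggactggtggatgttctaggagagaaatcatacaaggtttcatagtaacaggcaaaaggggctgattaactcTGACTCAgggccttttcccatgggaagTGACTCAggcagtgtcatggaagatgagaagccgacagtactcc
These sequences are of the reference strain, not of the cultured cells.

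Peaks per library bear on every count given here. BM3 had 14753 peaks, against 93467 in BM7, 86279 in BM4 and 99022 in BM8, and the WT libraries had 51497 to 72685. The lists hold no read counts, so depth and counting error are unknown, and absence of a peak means only that none was called. Scores were not normalized between libraries and are therefore given as percentiles among the peaks of the same library. The luminal call rests mainly on BM7, while the basal-like call needs 2 libraries, so the numbers of the 2 kinds cannot be compared as such. BM7 alone held 22168 regions, BM4 alone 26669 and BM8 alone 25928. With only the 14753 highest-scoring peaks of each library, called equal numbers below, 28898 regions formed, of which 3532 were luminal and 923 basal-like.

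The libraries did not group by population. BM7 shared 63667 regions with BM8, a Jaccard index (shared regions over the regions of either library) of 0.503. The basal-like pair BM4 and BM8 reached 0.401, close to 0.393 for BM7 and BM4. With equal numbers the index was again 0.503 for BM7 and BM8, against 0.400 for the luminal pair and 0.393 for the basal-like pair. BM8 also had a peak in 46.9% of the regions of BM7 that BM3 and BM4 lacked, but in 24.3% of those of BM4 that the luminal libraries lacked. BM3, which the luminal call did not need, had a peak in 30.0% of the regions that BM7 had and BM4 and BM8 lacked, against 19.3% and 11.1% of those of BM4 alone and BM8 alone among the 3 (equal numbers). The order was the same with all peaks, at 1.84%, 0.526% and 0.139%.

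**Figure D1:**
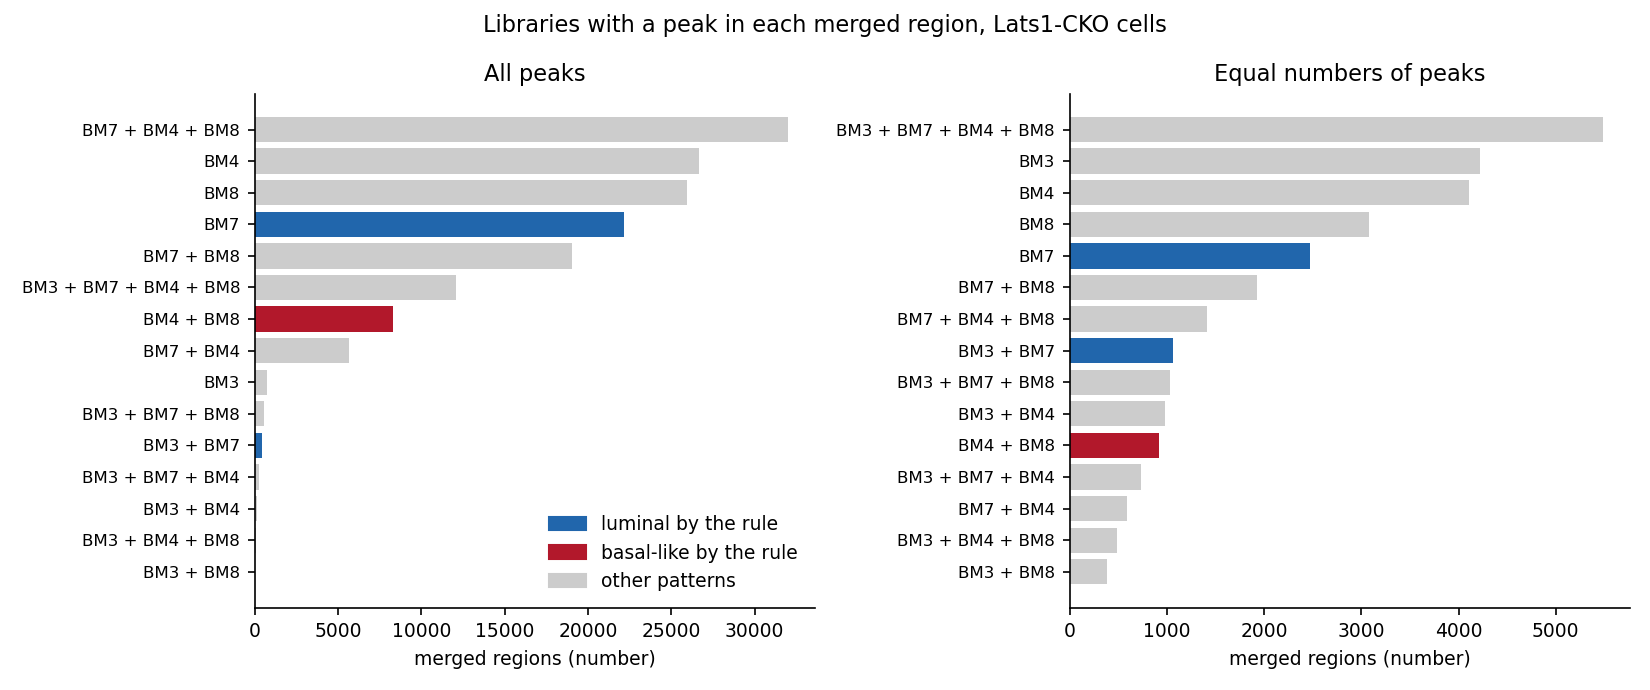
Number of merged regions (x axis) for each set of Lats1-CKO libraries with a peak there (y axis), with all peaks at left and equal numbers of highest-scoring peaks at right. Blue bars are luminal by the rule and the red bar is basal-like; with all peaks the single-library bars of BM7, BM4 and BM8 lie between 22168 and 26669.

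Both kinds were mostly distal. Regions within 1 kb of a GENCODE M21 transcription start site (TSS) made up 15.3% of luminal regions (3461), 14.7% of basal-like regions (1220) and 35.2% of shared regions. The 411 luminal regions with a peak in BM3 as well stood higher, at 29.9%. With equal numbers the shares were 27.3% for luminal, 19.7% for basal-like and 61.2% for shared regions. Luminal regions were narrow and low in rank, with a median width of 113 bp and a median percentile of 26.2 in BM7. The 411 with a BM3 peak as well were wider and ranked higher, at 223 bp and 66.7 in BM7. Basal-like regions had a median width of 174 bp and median percentiles of 42.5 in BM4 and 33.3 in BM8, and shared regions a median width of 253 bp.

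Of 21755 protein-coding genes, 532 (2.45%) had a luminal promoter, meaning that BM7, and neither basal-like library, had a peak no more than 1 kb from a TSS. A basal-like promoter, with peaks in BM4 and BM8 and in no luminal library, was found at 257 genes (1.18%), and 11356 genes had a peak in BM7, BM4 and BM8. These calls are by gene over all its TSSs, so the peaks of different libraries need not overlap. The promoter of Lats1 itself was shared, at percentile 75.2 in BM7, and at 81.5 and 74.7 in the basal-like libraries, with no peak in BM3. A peak at the promoter does not test the deletion. Among the sorting markers, Itga6, which encodes CD49f, was shared, at 61.3 and 88.4 in the luminal libraries BM3 and BM7 and at 63.5 and 79.4 in the basal-like libraries BM4 and BM8.

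Epithelial cell junction genes carried the clearest luminal promoters. Epcam (chr17:87635979-87651129), the adhesion molecule used for sorting, had peaks at percentile 65.0 in BM3 and 74.4 in BM7 and none in BM4 or BM8. It also had peaks in all 4 WT libraries, at 88.0 and 66.0 in luminal and 66.1 and 22.5 in basal-like cells. Cdh1 (chr8:106603351-106670246), which encodes E-cadherin, ranked at 79.3 in BM3 and 92.9 in BM7, and at 67.2 to 91.4 in the WT libraries. So both adhesion genes were marked in WT cells sorted as EpCAM-low, and unmarked in the Lats1-CKO basal-like libraries. Esrp2, an epithelial splicing regulator, gave 60.6 in BM3 and 74.4 in BM7, and Crb3 gave 57.3 and 59.7. Cldn3 gave 73.3 and 32.2, and Cldn4 gave 16.8 and 68.2. St14, a membrane serine protease, gave 32.7 in BM3 and 79.0 in BM7. Peaks in both luminal libraries and in neither basal-like library thus marked each of these genes. Of them 6 belong to the epithelial junction and splicing list, whose other luminal promoters had no peak in BM3.

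That list had 30 genes, of which 11 had a luminal promoter, against 2.45% of all genes, none a basal-like one, 9 a shared one and 10 another pattern. The remaining luminal members were the tight junction genes Ocln (71.3 in BM7), Marveld2 (77.3) and Cldn8 (84.4), the trafficking GTPase gene Rab25 (58.9) and the protease inhibitor gene Spint1 (19.2). By library, list genes with a promoter peak numbered 16 (BM3) and 30 (BM7) in Lats1-CKO luminal and 10 (BM4) and 18 (BM8) in Lats1-CKO basal-like cells, and 30 and 27 in WT luminal and 26 and 20 in WT basal-like cells. BM4 thus had the fewest of all 8 libraries, although it had promoter peaks at 12442 of all genes, above 11439 in BM6 and 7533 in BM3. Esrp1, the partner of Esrp2, had a peak in BM8 at 97.7 beside 82.7 in BM7 and none in BM4. Grhl2, an epithelial transcription factor, reached 66.7 in BM7, 8.57 in BM8 and no peak in BM4. These calls depend on the window and on the peaks used. Within 5 kb of a TSS 3 list genes were luminal (Ocln, Marveld2 and Cldn8), against 2.32% of all genes, and Cdh1 and Epcam were shared. With equal numbers 2 list genes were luminal, Cdh1 and Cldn8, against 2.96% of all genes.

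**Figure D2:**
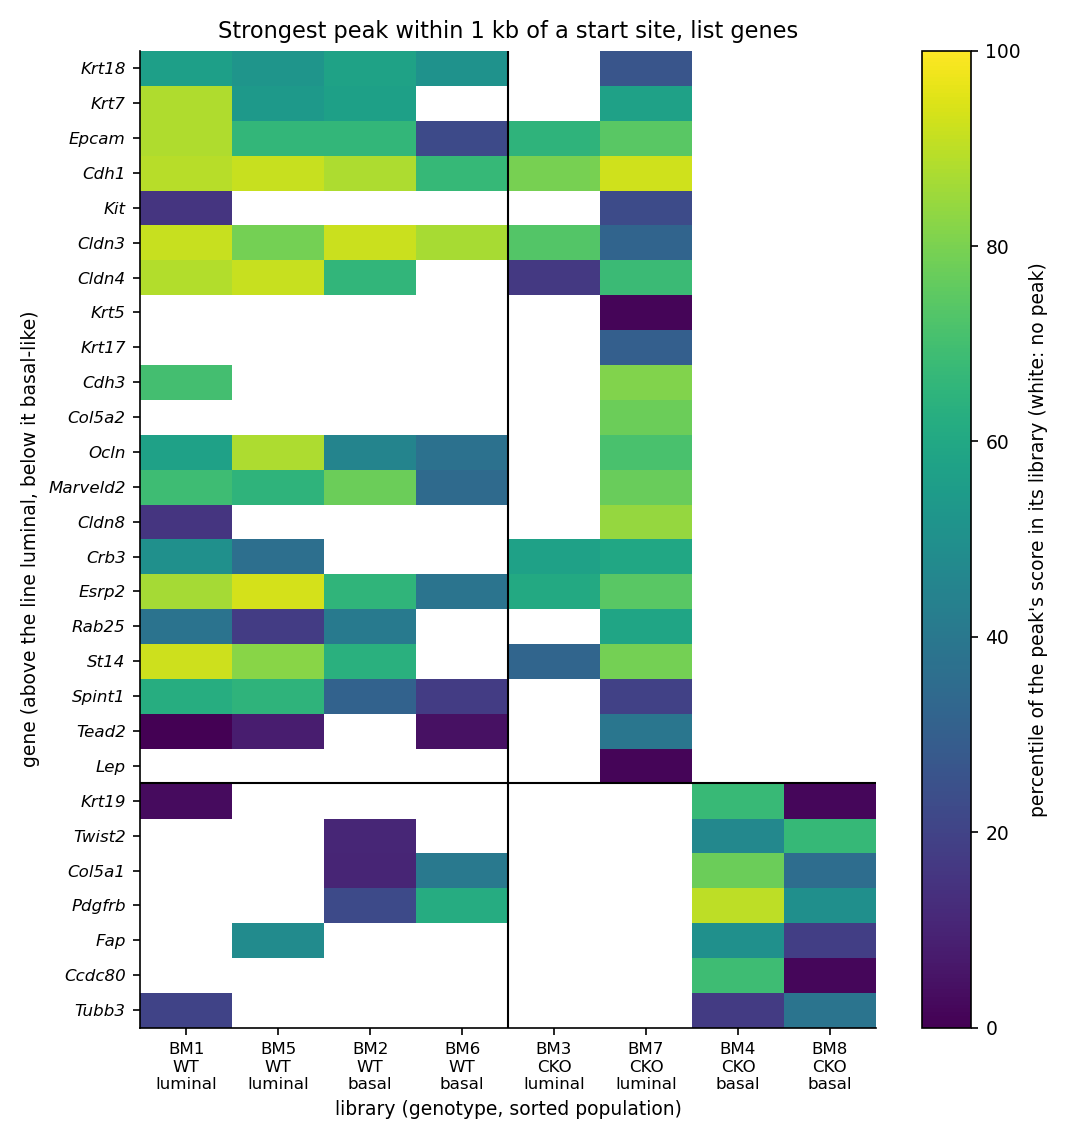
Score percentile, within its library, of the strongest peak within 1 kb of a TSS for each list gene with a luminal (above the line) or basal-like (below it) promoter, in the 8 libraries; white marks no peak. Most of the luminal epithelial genes are also marked in the WT libraries, Cdh1 in all 4 of them at 67.2 to 91.4, and the basal-like genes are mostly unmarked there.

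Of the 24 luminal identity genes, 7 had a luminal promoter and 1 a basal-like one, against 2.45% and 1.18% of all genes. The luminal ones were, beside Epcam, Cdh1, Cldn3 and Cldn4, the simple-epithelium keratins Krt18 (26.2 in BM7) and Krt7 (57.4), and the progenitor receptor gene Kit (22.9). The basal-like one was Krt19, at 67.5 in BM4 but only 1.83 in BM8, although it encodes a luminal keratin. Krt8, the partner of Krt18, was shared, at 54.1 and 29.5 in the luminal and 50.3 and 43.0 in the basal-like libraries. The luminal regulators Gata3 (97.5, 97.0 and 94.6 for BM7, BM4 and BM8) and Elf5 (81.4, 93.3 and 86.7) were shared as well. Within 1 kb and with all peaks, these adhesion genes were luminal among the Lats1-CKO libraries by the rule that named them. That they follow the luminal label is therefore no separate result. These transcription factor genes had promoter peaks in both populations. With equal numbers 1 gene of the list was luminal and 1 basal-like, and within 5 kb 2 were luminal and none basal-like. Over all genes the luminal and basal-like shares were 2.96% and 0.487% with equal numbers, and 2.32% and 1.56% within 5 kb.

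Of 23 basal and myoepithelial genes, 3 had a luminal promoter, none a basal-like one and 13 a shared one. Over all genes the shares were 2.45%, 1.18% and 52.2%, so a count of 0 basal-like promoters in a list of this size is near the background. The luminal ones were Krt5, barely above the lowest scores at 1.23 in BM7, Krt17 at 30.4 and Cdh3, which encodes P-cadherin, at 81.2. Krt14, the keratin partner of Krt5, was shared, at 8.28 and 52.9 in the luminal and 30.0 and 82.0 in the basal-like libraries. With equal numbers 4 genes of the list were luminal, the integrin gene Itga6, the laminin genes Lama3 and Lamb3 and the Notch ligand gene Jag2, and none was basal-like. Over all genes 2.96% were luminal and 0.487% basal-like at that setting. Trp63, the basal lineage regulator, had no promoter peak in any library, and Acta2, the smooth muscle actin gene, had one only in BM4, at 28.3.

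Basal-like promoters were found at mesenchymal genes. Of 25 such genes 4 were basal-like, against 1.18% of all genes, 1 was luminal and 15 were shared. Twist2, a mesenchymal transcription factor, ranked at 46.6 in BM4 and 67.0 in BM8. Col5a1 ranked at 77.5 and 35.8, and Pdgfrb, a growth factor receptor of stromal cells, at 89.9 and 49.7. Fap, a surface protease of activated fibroblasts, gave 50.3 and 18.5. In WT cells Col5a1 and Pdgfrb had peaks in both basal-like libraries (10.5 and 40.3; 22.3 and 62.0) and in neither luminal one. Col5a2, another collagen V chain, was luminal, at 77.4 in BM7. With equal numbers no gene of the list was basal-like, and within 5 kb 4 were, Twist2, Pdgfrb, Fap and Prrx1. Over all genes the basal-like shares were 0.487% and 1.56% at these settings. The study names 7 genes for these samples, of which Pdgfrb, Col5a1 and Twist2 had a basal-like promoter and the other 4 a shared one; as they were chosen on these samples, they are not independent evidence. The EMT repressor genes Snai1, Snai2, Zeb1 and Zeb2 all had shared promoters, Zeb1 at 30.4 in BM7 and at 45.1 and 40.4 in the basal-like libraries.

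Most genes of the Hippo pathway had shared promoters, against 52.2% of all genes. Of 23 YAP and TAZ target genes, 20 had a shared promoter, among them Ccn1 (84.8, 68.6 and 78.2 for BM7, BM4 and BM8) and Ccn2 (77.6, 71.9 and 81.9), and 1, the matrix gene Ccdc80, had a basal-like one (69.1 in BM4 and 1.83 in BM8). Of 18 genes of the pathway itself 17 were shared and 1, Tead2, was luminal, at 39.2 in BM7. These single calls are near the background of 2.45% luminal and 1.18% basal-like promoters. All 8 NCOR and HDAC corepressor genes were shared, as were 9 of 10 AP-1 genes and 9 of 12 RUNX, SOX and KLF genes. With equal numbers 3 AP-1, 2 RUNX, SOX and KLF, 2 YAP and TAZ target and 1 NCOR or HDAC genes were luminal. No gene of these lists was then basal-like, and over all genes 2.96% were luminal and 0.487% basal-like. Within 5 kb 1 Hippo gene was luminal and 1 YAP and TAZ target basal-like, against 2.32% and 1.56% of all genes.

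None of 10 fibroblast, 10 immune and 8 endothelial genes had a luminal or basal-like promoter, a count near the background of 2.45% and 1.18% of all genes. Among 6 adipocyte genes Lep was luminal, at 1.23 in BM7, among 6 neuronal genes Tubb3 was basal-like, at 17.3 in BM4 and 38.3 in BM8, and of 12 milk genes none was either. Ptprc, the pan-leukocyte marker, had a peak only in BM8, at 45.6. The fibroblast markers Lum, Dpt, Pdpn and Col3a1 and the endothelial markers Cdh5 and Tek had no promoter peak in BM7, BM4 or BM8 within 1 kb, whereas Pdgfra, Col1a1, Pecam1 and 4 immune genes were shared. The part of other cells in these peaks was not tested.

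By score alone, the luminal promoters that ranked highest in BM7 included Ankrd22 (96.1 in BM7), the desmosome cadherin gene Dsg3 (96.0), Rab38 (96.0), Eps8l1 (94.1), the lactate transporter gene Slc16a3 (93.4), Cdh1, Arhgef38 (91.4) and Rbbp8nl (91.0). Of all 532 genes 28 also had a BM3 peak, with Atp13a5, Cdh1, Arhgef38, Ripk4, Mpv17l, Cldn3, Epcam, Esrp2 and Crb3 among the highest there. Ripk4, a kinase of epidermal differentiation, gave 79.0 in BM3 and 85.6 in BM7. The basal-like promoters that ranked highest were of mixed function. Slc2a5, a fructose transporter gene, gave 68.4 in BM4 and 91.4 in BM8, with no peak in any WT library. Its BM4 and BM8 peaks were separate, as no basal-like merged region lay within 1 kb of its TSSs. Gpatch4 gave 69.1 and 78.9, and Evi2 and Evi2a, which overlap and share 1 peak, gave 64.7 and 66.3. Also among them were 5430403G16Rik, Fabp12, Ppih, Arl10 and Klhl40.

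The CAGGTG E-box was more frequent in luminal than in basal-like regions. In the central 300 bases of distal regions it occurred in 30.6% of 19118 luminal and 11.5% of 7090 basal-like regions, against 17.4% of shared and 17.4% of all distal merged regions. Distal regions with peaks in both luminal libraries held it in 60.4% of 288. Near a TSS the shares were 37.8% for luminal, 69.9% for those with a peak in both luminal libraries, 15.7% for basal-like and 16.8% for shared regions. The window is wider than most luminal regions, and within the region bounds alone the distal shares were 19.0% for luminal, 58.7% for those with a peak in both luminal libraries and 6.26% for basal-like regions. Median GC content was alike, at 47.7% in luminal and 47.3% in basal-like distal regions, and 54.3% and 53.3% near a TSS. It was higher in regions with peaks in both luminal libraries, at 51.2% in distal ones and 60.3% near a TSS. These regions also ranked higher in BM7, at a median percentile of 66.7 against 26.2 for all luminal regions. The parts of GC content and rank in the E-box shares were not tested. Regions with peaks in both luminal libraries held the E-box less often with equal numbers. The shares were 41.3% of 578 distal regions and 34.6% of 482 near a TSS. Luminal regions as a whole then stood at 31.5% and 32.2%, and basal-like regions at 9.45% and 14.3%.

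The difference did not hang on 1 library. With equal numbers, distal regions of a single library held the E-box in 28.6% for BM7 and 31.3% for BM3, against 9.94% for BM4 and 10.1% for BM8. Across libraries, its share of the distal peaks among the 14753 highest-scoring was 24.7% (BM3) and 20.97% (BM7) in luminal and 12.1% (BM4) and 12.8% (BM8) in basal-like cells. The WT libraries gave 25.1% and 26.8% in luminal and 21.1% and 18.2% in basal-like cells. Luminal libraries thus lay above basal-like ones in both genotypes without overlap, by 10.4 percentage points in Lats1-CKO and 6.32 in WT cells, and the Lats1-CKO basal-like libraries lay below the other 6. An exact permutation test (two-sided) of 2 libraries against 2 cannot give a p below 0.333. Whether the difference differed between genotypes was not tested.

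**Figure D3:**
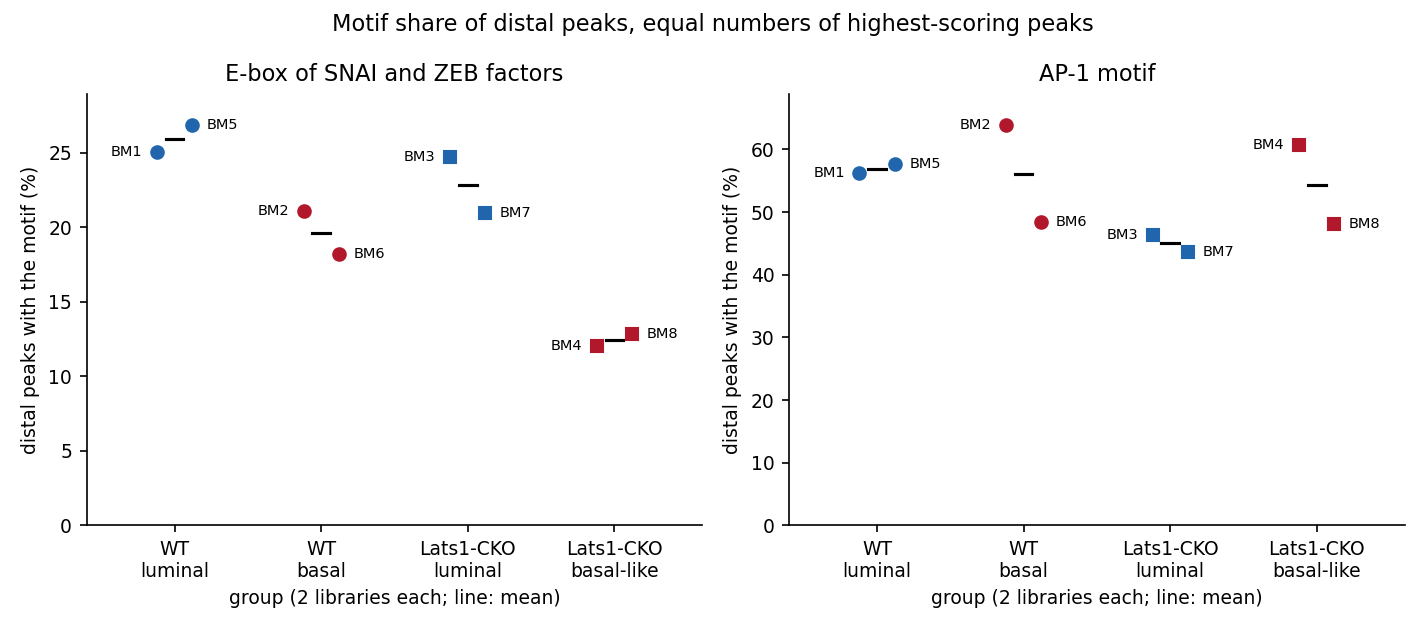
Share of distal peaks (y axis, %) that hold the E-box (left) or the AP-1 motif (right) in their central 300 bases, counting only the 14753 peaks with the highest scores per library; each point is 1 library and the short line the mean of a group. For the E-box the Lats1-CKO basal-like libraries lie at 12.1% and 12.8%, below all others; for AP-1 BM8 lies at 48.1%, close to BM3 at 46.3%.

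Other E-boxes, searched after the CAGGTG result had been seen, did not separate the kinds in this way. CAGCTG occurred in 17.9% of luminal and 21.6% of basal-like distal regions, CAGATG in 23.5% and 26.8%, CACGTG in 4.87% and 4.39%, CATATG in 5.74% and 5.90%, and CATGTG in 23.9% and 25.6%. In splits likewise made afterwards, the CAGGTG share rose with rank in BM7, from 27.4% of luminal regions below percentile 25 to 48.6% of those above percentile 75. Basal-like regions showed no such rise, with 12.7% below percentile 25 and 7.75% above percentile 75 of BM4. Luminal regions without a WT peak held CAGGTG in 26.0%, and the 677 with a peak in all 4 WT libraries in 59.7%. Between the same levels its share also rose in basal-like regions, from 10.7% to 17.6%, and in shared regions, from 12.7% to 18.6%. The AP-1 share of luminal regions rose likewise, from 18.6% to 30.3% with rank in BM7 and from 15.6% to 40.0% with WT peaks. These rises were thus not limited to CAGGTG or to luminal regions.

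The E-box was more frequent at the centre of luminal regions than far from it. In luminal regions a 25 bp bin within the central 50 bp held it in 4.21% of regions, against 1.92% for bins over 400 bp away, a ratio of 2.19. The ratio was 4.73 in luminal regions with a peak in both luminal libraries, 0.655 in basal-like and 0.863 in shared regions. The central share of basal-like and shared regions was thus below that of the distant bins. It was above that of the adjoining bins, at 1.22% against 0.698% to 0.806% from 25 to 75 bp away in basal-like regions. The AP-1 motif was centred in luminal regions as well, with a ratio of 4.37, and 5.5 where both luminal libraries had a peak. Its ratio was 11.7 in basal-like and 7.94 in shared regions.

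**Figure D4:**
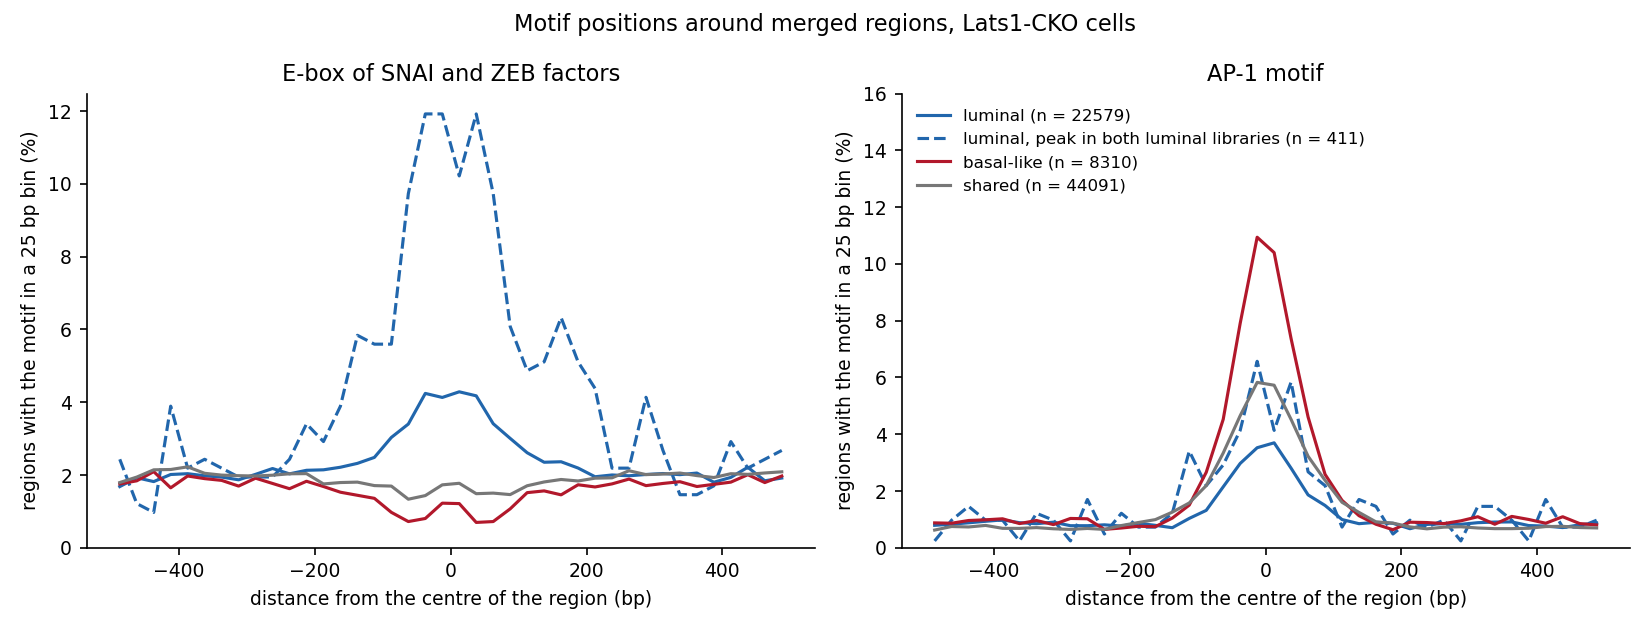
Share of regions (y axis, %) with the E-box (left) or the AP-1 motif (right) in 25 bp bins by distance from the region centre (x axis, bp), for luminal, basal-like and shared regions. At the centre the E-box stands at 4.21% in luminal and 1.22% in basal-like regions, and AP-1 at 3.61% and 10.7%.

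The same letters stood at the named promoters. Of the 11 luminal promoters of the epithelial junction and splicing list 10 held the E-box in the central 300 bases of a luminal region. These bases can reach past the peak. Ocln held the E-box 5 times over 2 luminal regions and Esrp2 5 times over 3. Crb3 held it 4 times and Cdh1 3 times, in 1 luminal region each. Cldn3 had none in the central 300 bases of its region. Of all 532 genes with a luminal promoter 238 (44.7%) held it, of the 28 with a BM3 peak 22 (78.6%), and of the 257 with a basal-like promoter 28 (10.9%). None of the 4 basal-like mesenchymal promoters did. A match is a description of the letters and shows no binding.

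By share of regions, AP-1 motifs went the other way. They occurred in 49.3% of basal-like and 22.4% of luminal distal regions, against 40.9% of shared and 33.6% of all distal regions, and near a TSS in 30.6% and 13.8%. Distal regions with a peak in both luminal libraries held the motif in 35.4%, above the share of all distal regions, and with equal numbers in 43.4%, against 46.2% of all. The separate libraries spread more widely here: 39.9% of distal regions of BM4 alone and 28.6% of BM8 alone held the motif, and 22.2% of those of BM7 alone. Among the highest-scoring peaks, AP-1 shares were 60.6% in BM4 and 48.1% in BM8, and 46.3% in BM3 and 43.7% in BM7. BM8 lay above BM3 by less than it lay below BM4. In the WT libraries the groups overlapped, at 56.2% and 57.6% in luminal and 63.8% and 48.4% in basal-like cells. The letters of an E-box followed by ANTCA form both motifs, and such joint matches occurred in 163 luminal and 27 basal-like regions.

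Of 14 motifs searched in the highest-scoring distal peaks of Lats1-CKO libraries, 3 were higher in both luminal libraries, 2 in both basal-like ones and 9 overlapped. In the WT libraries 2 were higher in both luminal ones, 2 in both basal-like ones and 10 overlapped. Beside the E-box, ACAATG of SOX factors was higher in both Lats1-CKO luminal libraries, and it lay in 21.2% of luminal and 14.2% of basal-like distal regions. Its WT groups overlapped, with means of 19.3% in luminal and 20.2% in basal-like libraries. AACCGGTT of grainyhead-like factors was higher in the luminal libraries of both genotypes, but rare, at 0.356% of luminal and 0.0846% of basal-like distal regions. The TEAD sequence GGAATG differed little, at 21.3% of luminal and 23.8% of basal-like distal regions against 23.2% of all, and its libraries overlapped. TGTGGT of RUNX factors stood at 32.6% and 28.2%, with 30.8% of all. The STAT sequence TTCNNNGAA was higher in both Lats1-CKO basal-like libraries, and its WT groups overlapped. The others searched were CCGGAAG for ETS factors, TGTTTAC for forkhead factors, AGATAA for GATA factors, TTGGCA for nuclear factor I, GGGCGG for SP and KLF factors, TTGCNNAA for C/EBP factors and CCACNAGGG for the insulator protein CTCF. With 2 libraries per group, groups without overlap arise at a rate of 0.333 where the labels make no difference. The numbers of separated motifs are near that rate, and no motif could pass an exact test.

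Distal regions, those over 1 kb from any TSS, were assigned to the nearest protein-coding TSS within 100 kb. In this way 14969 luminal and 5930 basal-like regions were assigned, a ratio of 2.52, and 7627 genes (35.1%) had at least 1 luminal and 4114 (18.9%) at least 1 basal-like region. The ratio was 5.82 for the epithelial junction and splicing list (64 to 11), 4.88 for RUNX, SOX and KLF genes (39 to 8), 4.73 for luminal genes (52 to 11) and 3.94 for basal and myoepithelial genes (63 to 16). It was 2.23 for YAP and TAZ targets (69 to 31), 1.89 for Hippo genes (34 to 18) and 1.62 for mesenchymal genes (42 to 26). NCOR and HDAC genes also stood above the ratio of all genes (17 to 6), as did the small neuronal (15 to 3) and milk gene (9 to 1) lists. Higher ratios were therefore not limited to epithelial lists, and differences between lists were not tested.

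**Figure D5:**
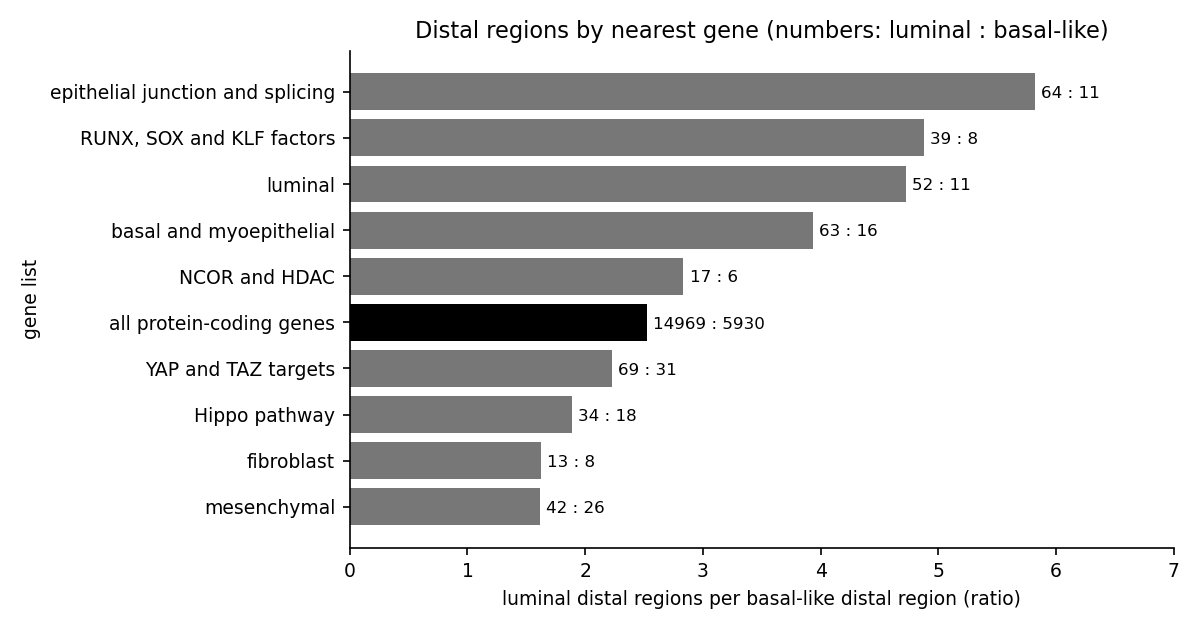
Luminal distal regions per basal-like distal region (x axis, ratio) assigned to the genes of each list (y axis), with both numbers beside each bar; the black bar is all protein-coding genes at 2.52. Lists with fewer than 20 regions are left out, and the lists share some genes.

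Single genes varied within the lists. Cdh1 had 5 luminal and no basal-like distal regions, Elf5 5, Epcam and Cldn8 4 each and Grhl2 6 against 3. Among basal and myoepithelial genes, Mylk, the myosin kinase gene, had 10 luminal and no basal-like regions, Lama3, a laminin chain gene, 9 and none, Egfr 9 and none, and Trp63 7 and none. Sox9, a progenitor regulator, had 8 against 1. Among mesenchymal genes, Col5a1 had 1 luminal and 5 basal-like regions, beside 11 shared ones. Others of that list had more luminal regions, with 8 against 1 at the N-cadherin gene Cdh2, 4 against 0 at Fap, 3 against 0 at Twist2 and 4 against 1 at both Postn and Tgfb2. By rule, the widest luminal excess was near Ank3 (17 against 3), a membrane scaffold gene, Pde4d (19 against 6) and the guidance receptor gene Robo1 (13 against 0), followed by Nck2, Palld, Nav2, Magi1, Arhgef28, 5730522E02Rik and Tiam1. Pde4d (chr13:108449948-109953461) and Robo1 (chr16:72308306-73046095) are long genes, and the part of gene length was not tested. The basal-like excess was smaller, led by Prkar1b (0 against 7), a protein kinase A subunit gene, Mecom (2 against 9), a transcription factor gene, and Cops8 (0 against 6), with Dysf, Lnx1, Sik3, Sema6d, Tnr, Cdk6 and Cacna1a next.

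Of the distal regions that ranked highest, the Tmprss11e intron region printed above stood at 99.2 in BM7 and 87.9 in BM3, and at 88.7 to 99.9 in the WT libraries. The Evi5l intron region stood at 98.8 in BM7, with 6.57 in BM1 as its one WT peak. The other 3 luminal regions lay on chromosome 11, 528823 bp from the TSS of Sox9 (99.2 in BM7), 1118 bp from Sept9 (98.9) and 333327 bp from Slc39a11 (98.5). Among basal-like regions, the Pappa2 region stood at 94.7 in BM4 and 86.9 in BM8, and a coding exon of Pik3r3, a PI3K subunit gene, at 96.7 and 87.5. A region 28819 bp from Il13ra1 stood at 91.2 and 88.6, the printed intergenic region at 88.7 and 86.7, and a Cemip intron at 87.9 and 86.5.

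The WT libraries, which the rule did not use, had a peak in a smaller share of luminal than of basal-like regions when all peaks were used. The shares of luminal and basal-like regions with a peak were 28.1% and 30.2% in BM1 and 14.0% and 21.2% in BM5, the WT luminal libraries. For the WT basal-like libraries they were 22.5% and 37.2% (BM2) and 9.22% and 18.5% (BM6). The log2 ratio of the luminal to the basal-like share was -0.11 and -0.59 in WT luminal and -0.72 and -1.01 in WT basal-like cells. It was thus higher in both WT luminal libraries, by 0.52 (exact permutation test, two-sided, n = 2 per group, p = 0.333, the smallest this design allows). With equal numbers BM1 turned, with a peak in 41.9% of luminal and 29.7% of basal-like regions, and near a TSS so did BM5 (38.1% and 26.4%) and BM2 (39.1% and 35.2%). The difference between WT luminal and WT basal-like libraries was then 0.49, and over distal regions alone the groups then overlapped (0.50, exact p = 0.667). No WT library had a peak in 61.4% of luminal, 43.7% of basal-like and 6.21% of shared regions. Luminal regions with a peak in both luminal libraries were different, with only 7.06% lacking a WT peak and a peak in 87.8% and 74.5% of them in WT luminal and in 80.0% and 50.6% in WT basal-like cells. They also ranked higher in BM7, at a median percentile of 66.7 against 26.2 for all luminal regions. The part of rank in this difference was not tested.

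Across chromosomes, luminal regions outnumbered basal-like ones by 1.501 (chromosome 15) to 4.58 (chromosome X). On X they made up 19.5% of regions and basal-like regions 4.26%. On chromosome 15 these shares were 10.8% and 7.18%.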

How the data were processed

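Accessibility was measured by ATAC-seq in 8 libraries, 2 of each sorted population and genotype; the 4 Lats1-CKO libraries define the regions. Per the paper's methods and the submitters' notes, the authors trimmed reads with cutadapt, aligned them uniquely to mm10 with Bowtie 1.0.0, removed duplicates (Picard 2.3.0), mitochondrial reads and long fragments, called peaks with MACS2 in each library and removed the ENCODE blacklist. They discarded 1 Lats1-CKO luminal replicate for quality, not named in the sources used here; both were kept here. The deposited lists give a position and a score per peak, taken to be that of MACS2 and not normalized; no reads are counted, so scores were ranked within each library and given as percentiles.

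Peaks sharing 1 bp or touching were merged (pandas 2.3.3, numpy 2.4.6 and scipy 1.17.1 under python 3.11.15), compared with GENCODE M21 and GRCm38.p6, and the steps were tested on simulated peaks. Ties in score were broken by file order. Motifs were searched on both strands. Genes named are all list genes with a luminal or basal-like promoter, the sorting markers and keratins, and the 10 promoters, 10 genes by excess of distal regions and 5 distal regions of each kind that rank highest; other genes were named after their values were seen. Members and lists were chosen with earlier results of these data known. Some promoters that the rule selects are not reported here.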

Additional observations from a re-analysis of the deposited data

How the results depend on the processing

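The numbers of regions depended on the peaks used. With equal numbers of peaks there were 3532 luminal and 923 basal-like regions, and with the peaks above the median score of their library 9794 and 4448. The shares within 1 kb of a TSS (luminal, then basal-like) were 27.3% and 19.7% with equal numbers, 18.3% and 17.9% above the median score, 11.6% and 11.2% where no peak of the other population lay within 500 bp, 34.9% and 35.1% within 5 kb, and 11.9% and 11.7% from protein-coding TSSs only. Genes with a basal-like promoter fell to 106 (0.487%) with equal numbers, and those with a luminal promoter numbered 645 (2.96%). Within 5 kb 505 genes (2.32%) were luminal and 340 (1.56%) basal-like. Leaving out 1 library at a time gave 1204 to 42702 luminal and 8413 to 40416 basal-like regions, with 15.3% to 23.0% and 12.6% to 23.3% within 1 kb of a TSS. Without BM7 the luminal regions numbered 1204 and the basal-like ones 40416; without BM4 or BM8 the basal-like ones numbered 34453 and 35213, and without BM8 the luminal ones 42702. The difference in log2 ratio between WT luminal and WT basal-like libraries stayed above 0, at 0.13 to 0.76. Without BM4 it was 0.13 and without BM8 0.24, and in both cases the WT luminal and WT basal-like libraries overlapped. In distal regions the log2 of the luminal over the basal-like share was 1.41 for the E-box, 1.60 over whole regions and 1.74 with equal numbers. It was -1.14, -1.53 and -1.06 for AP-1. Those of RUNX (-0.10 over whole regions), SP/KLF (-0.19 over whole regions and -0.07 with equal numbers) and GATA (0.60 with equal numbers) changed sign, and that of grainyhead-like factors had no value with equal numbers, where no basal-like region held the motif. The causes of these changes were not tested. No paired analysis was possible because the labels give the libraries no replicate numbers that pair luminal with basal-like cells.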
